A study of Homo sapiens with 6 samples.

Results

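The genes described here are the clustered histone genes, taken from a merged transcript assembly as every gene whose name begins HIST1H, HIST2H, HIST3H or HIST4H on chromosomes 1 to 22. They comprised 71 gene names of the 25211 in the assembly, and 75 transcript models of 55083. It was built from 6 RNA libraries of a line of human beta cells from the pancreas, EndoC-βH1. In 3 of them a lentiviral short hairpin RNA (shRNA) against the promoter of the insulin gene INS had been induced with doxycycline at 1 mg/mL for 7 days, and the 3 negative control libraries received none. The protocol, given alike for both groups, describes delivery of the hairpin construct by lentivirus, and a group that received the drug but lacked the hairpin is not among the samples.

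The assembly lists exon positions and names. None of its 555595 lines carries an abundance, so neither a level in any library nor a difference between induced and control cells was analysed here. All 75 histone models matched a RefSeq transcript exactly. An assembly merged with a reference can list a model whatever reads it had, so a model listed here is no measure of expression. Cell type markers could not be read from a file without levels.

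Histones are the proteins around which DNA is wound. H2A, H2B, H3 and H4 form the core of the nucleosome, and H1 binds the linker DNA between cores. Most genes in the clusters are of the replication-dependent kind, which is known to be transcribed mainly while DNA is copied. Messages of these genes are known to lack introns and a poly(A) tail and to end just after a short stem-loop, which is bound by the stem-loop binding protein SLBP. That end is made by a cut that the U7 small nuclear RNA helps to direct. The low-input cDNA kit named in the labels is known to prime from poly(A) tails. How far that kit captured tail-less histone messages was not tested, since the assembly holds no levels.

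The stem-loops carry the main shared feature of the group, so their letters are shown first. They were read from the GRCh37 genome, on the strand of each gene, from 5′ to 3′. Capitals mark the paired stem and lower case the 4-base loop. The 10 forms found within 100 bases of a model's end are listed with an example gene.
HIST1H2AC: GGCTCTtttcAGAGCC
HIST1H2BD: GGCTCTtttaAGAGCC
HIST2H2AC: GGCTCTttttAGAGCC
HIST1H3E: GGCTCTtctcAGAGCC
HIST1H2BI: GGCTCTtctaAGAGCC
HIST1H4A: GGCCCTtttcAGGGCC
HIST2H4A: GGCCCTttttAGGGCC
HIST1H4L: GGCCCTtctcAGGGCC
HIST1H2AG: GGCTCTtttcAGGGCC
HIST1H2AK: GGTTCTtttcAGAGCC

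The class of the histone went with the stem. The stem opening GGCTCT was found in 52 of 68 models with a fully paired stem-loop and in none of the 15 H4 models. All 15 H4 models had the stem opening GGCCCT, and no model of another class had it. The commonest form, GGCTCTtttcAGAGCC, ended 39 models: 4 of H1, 13 of H2A, 11 of H2B and 11 of H3. The form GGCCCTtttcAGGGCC ended 10 H4 models, and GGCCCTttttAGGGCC ended those of HIST1H4I, HIST1H4K, HIST2H4A and HIST2H4B. The loop was TTTC in 51 models, TTTA in 9, TTTT in 5, TCTC in 2 and TCTA in 1. In HIST1H2AG and HIST1H2AK a G-U pair stood in the stem in place of a Watson-Crick pair.

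The 5 bases on either side are shown for 6 genes, with the stem in capitals.
HIST1H1E: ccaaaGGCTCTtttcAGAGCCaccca
HIST1H2AC: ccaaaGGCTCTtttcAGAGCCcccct
HIST1H2BD: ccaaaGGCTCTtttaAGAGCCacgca
HIST1H3E: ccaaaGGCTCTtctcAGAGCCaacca
HIST1H4A: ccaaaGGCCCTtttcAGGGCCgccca
HIST1H2AK: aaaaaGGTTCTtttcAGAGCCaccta
The 5 bases after the stem differ between all 6, and the 5 before it are the same in all but HIST1H2AK. On hg19 the HIST1H1E stretch lay at chr6:26157318-26157343 and the HIST1H4A stretch at chr6:26022253-26022278, both on the plus strand. The HIST1H2AK stretch lay at chr6:27805658-27805683 on the minus strand.

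Nearly all histone genes ended at such a stem-loop. With all 6 pairs required, 66 of 71 gene names (93.0%, 95% interval 84.3 to 97.7%) had one within 100 bases of a model's end, against 1.91% of all 24055 gene names searched the same way. Allowing 1 unpaired position gave 67 of 71 (94.4%), against 9.89% of all gene names. The intervals are exact Clopper-Pearson intervals and cover counting error only. The stem ended 5 bases before the model's last base in 48 of the 68 models, and 3 to 6 bases before it in 60. It stood 51 bases before the end in HIST1H2AE, whose model ran on past the usual position, 18 before it in HIST1H2BG, 11 in HIST1H3A, 9 in HIST1H4I, and at the very last base in HIST1H4F. A fully paired stem-loop ending at most 12 bases before the end was found in 64 of 71 histone gene names, against 0.295% of all gene names, which is 71 names. The 7 that are no histone members were ALOX15P1, GLE1, GPRC5A, MIR769, SNORA6, SNORD88B and SOHLH1, and none of them carried one of the 10 histone forms.

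**Figure D1:**
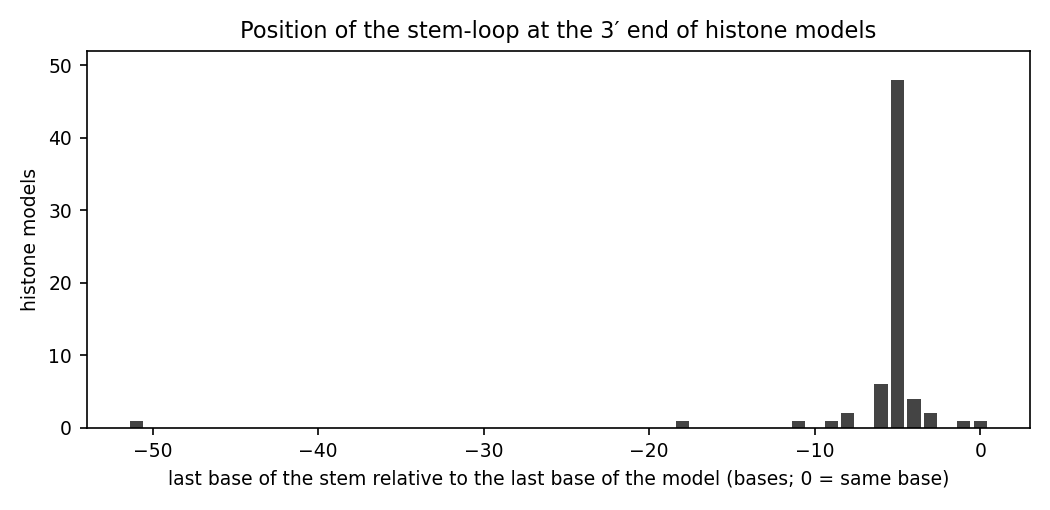
Position of the last base of the fully paired stem-loop relative to the last base of its model, in bases, for 68 histone models; bar height is the number of models. The bar at 5 bases before the end holds 48 models, and the models farthest to the left are those of HIST1H2AE, at 51 bases before the end, and HIST1H2BG, at 18.

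By class, all 6 H1, all 13 H3 and all 15 H4 gene names had the fully paired stem-loop. So did 16 of 17 H2A and 16 of 20 H2B gene names. The H2A exception was HIST1H2APS1, a pseudogene by its name and non-coding accession. It held a stem-loop with 5 of 6 pairs that ended 80 bases past the model. The H2B exceptions were HIST1H2BK, HIST2H2BE, HIST2H2BA and HIST2H2BC, and the last 2 have non-coding accessions. The longest frame of HIST2H2BC took up its whole model of 582 bases, with 193 codons.

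Past the cut site, replication-dependent histone genes are known to carry a purine-rich downstream element that pairs with U7. The letters AAAGAG, on the gene's strand, stood in the 60 bases past the model's end in 21 of 71 gene names (29.6%), against 2.37% of all gene names. In the 21 models with both, the match began 7 to 14 bases past the end, with a median of 12. It was present in 8 of 15 H4, 4 of 6 H1, 5 of 16 H2B and 4 of 17 H2A models with a stem-loop, and in 0 of 14 H3 models. This is a search for 6 exact letters. A model without them may hold a diverged element.

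The poly(A) signal of other messages was mostly missing. AATAAA or ATTAAA stood in the last 50 bases of a model in 5 of 71 histone gene names (7.04%, 95% interval 2.33 to 15.7%), against 68.8% of all gene names. The 5 were HIST2H2BE, HIST1H2BD, HIST1H2BK, HIST1H2BH and HIST1H4J. In the long models of the first 3 the hexamer AATAAA ended 17, 18 and 20 bases before the model's end, and no stem-loop stood there. In HIST1H2BH and HIST1H4J it ended 43 and 23 bases before the end of a short model that also had its stem-loop.

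Most histone genes were a single exon. In 66 of 71 gene names (93.0%, 95% interval 84.3 to 97.7%) each model had 1 exon, against 14.5% of all gene names. The 5 others were HIST2H2BA, HIST2H2BF, HIST1H2BD, HIST1H3D and HIST1H2BK, with 1 model of 2 exons each. The histone models had a median of 467 spliced bases, against 2551 over all 49614 models of chromosomes 1 to 22. Their median GC content was 58.1%, against 49.0% over all models.

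By median spliced length H1 was the longest class and H4 the shortest, while the ranges of single-exon H2A, H2B and H3 models overlapped. The 6 H1 models measured 725 to 790 bases (median 779), with HIST1H1T, the testis form, shortest and HIST1H1B longest. The 18 single-exon H2A models measured 429 to 564 bases (median 484), with HIST1H2APS1 shortest and HIST1H2AE longest. The single-exon H2B models measured 425 bases in HIST1H2BH up to 2223 in HIST2H2BE (median 447.5). Single-exon H3 models measured 457 bases in HIST2H3D up to 507 in HIST2H3A (median 472), and the 2-exon HIST1H3D model 921. The 15 H4 models measured 354 bases in HIST1H4K up to 412 in HIST4H4, with a median of 370. Thus the longest H4 model was shorter than the shortest model of any other class.

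**Figure D2:**
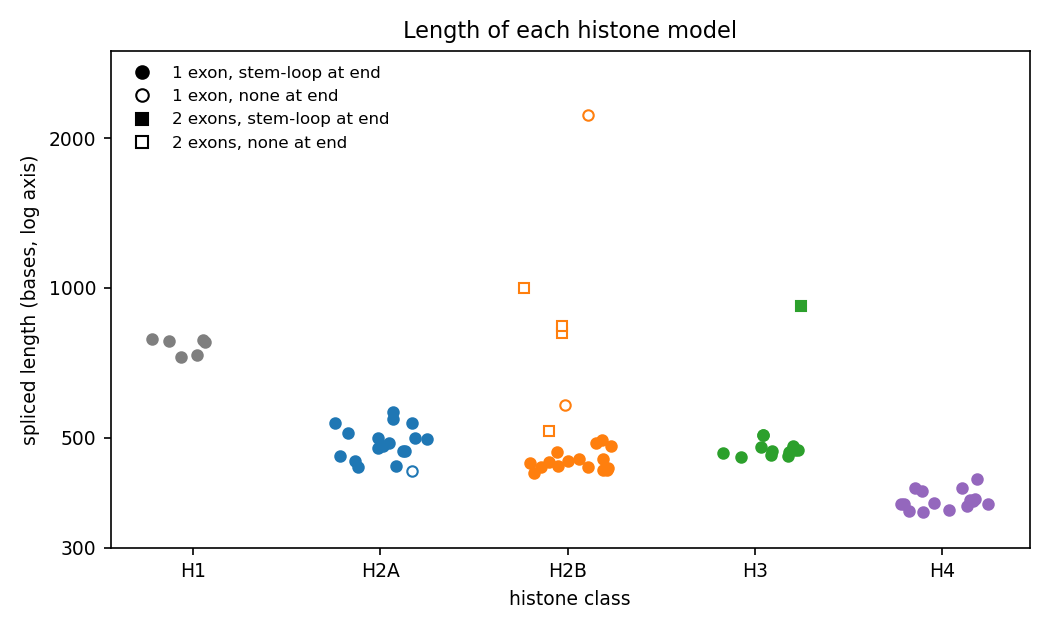
Spliced length of the 75 histone models in bases, on a log axis, by class; circles are models of 1 exon, squares models of 2 exons, and filled marks have a fully paired stem-loop near their end. The open marks of H2B include HIST2H2BE at 2223 bases, and the filled square of H3 is HIST1H3D at 921 bases.

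The models hold little besides the coding frame. In 34 of 75 the longest frame from ATG to a stop began at the first base, so that the model has no 5′ leader. This was so for 11 of 15 H4, 8 of 14 H3, 10 of 22 H2B, 5 of 18 H2A and 0 of 6 H1 models. The H2B models among them include HIST2H2BC, which has a non-coding accession. The share over all models of the assembly is not given here, so this trait cannot be called particular to histones. For 32 of the 34 models a GENCODE release 44 transcript on GRCh37 covered at least 90% of the model. It began further upstream in 31 of them, by a median of 35 bases. After the stop codon, the 67 coding models with a stem-loop, leaving out HIST1H3D, had 42 to 116 bases, with a median of 57. Start sites of the histone genes in this assembly are therefore partly start codons, which bears on the spacing and promoter values below.

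H4 genes differed in sequence and encoded 1 protein. The longest frame had 103 codons in 14 of 15 copies and gave an identical translation in all 14, from 12 different coding sequences. The exception, HIST1H4G, had 98 codons. Among the 14 copies 106 of 309 coding bases varied, 96 of them at the third position of a codon, 10 at the first and 0 at the second. Pairs of the 14 coding sequences were 79.2 to 100% identical, with a median of 83.7%. The first 30 coding bases of 6 of them show this, with the variable positions in capitals.
HIST1H4A: atgtcTggACgTggTaaGggCggGaaGggT
HIST1H4B: atgtcTggTCgCggCaaAggCggTaaAggT
HIST1H4F: atgtcTggTAgAggCaaAggTggTaaAggT
HIST1H4I: atgtcAggACgCggCaaAggAggTaaGggC
HIST2H4A: atgtcCggCAgAggAaaGggCggAaaAggC
HIST4H4: atgtcTggGCgAggTaaAggTggCaaGggG
Of these 30 bases, 10 varied among the 14 copies, in 12 forms.

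H3 genes fell into 3 proteins of 136 codons. Of 13 copies outside HIST1H3D, 9 of the HIST1 group gave 1 translation, from 9 coding sequences. HIST2H3A, in 2 copies, and HIST2H3D differed from it at 1 residue, number 97 counted with the initial methionine. HIST3H3, the testis H3, differed at 4 residues, numbers 25, 72, 99 and 112. Pairs of the 9 HIST1 coding sequences were 81.0 to 88.1% identical.

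H2A and H2B were more varied in protein. The 17 H2A copies with a coding accession gave 11 translations of 128 to 131 residues, and 5 genes, HIST1H2AG, HIST1H2AI, HIST1H2AK, HIST1H2AL and HIST1H2AM, shared 1 of them. HIST2H2AB differed from it at 7 residues. The 18 H2B copies gave 14 translations of 126 or 127 residues, and HIST1H2BC, HIST1H2BE, HIST1H2BF, HIST1H2BG and HIST1H2BI shared 1. HIST3H2BB differed from that one at 6 residues, and HIST1H2BD at 1. H1 genes were the most diverse. The 6 H1 frames, of 213 to 226 codons, gave 6 translations, and their 15 pairs were 45.4 to 86.0% identical over the aligned length. Pairs with HIST1H1T were 45.4 to 49.4% identical, and all other pairs 66.4 to 86.0%.

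The 71 names stood at 73 places, called copies here, since HIST2H2AA3 and HIST2H3A are each listed at 2. With a gap of over 200 kb between neighbours starting a new cluster, the copies formed 6 clusters and 2 lone copies. The largest, on chromosome 6 from 26017260 to 26285727 (268.5 kb on hg19), ran from HIST1H1A to HIST1H4H with 32 copies: 5 of H1, 4 of H2A, 8 of H2B, 7 of H3 and 8 of H4. Another, from 27775257 to 27861669 (86.4 kb), ran from HIST1H2BL to HIST1H2BO with 16 copies. A set of 5 copies, HIST1H2BJ to HIST1H2AH, lay between them at 27100095 to 27115341. The testis genes HIST1H2AA and HIST1H2BA and the pseudogene HIST1H2APS1 lay at 25726291 to 25733089, 284.2 kb before the largest cluster. All 6 H1 genes lay on chromosome 6, 5 in the largest cluster and HIST1H1B in that of 16 copies.

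On chromosome 1 the HIST2 cluster spanned 149754245 to 149859466 (105.2 kb), from HIST2H2BF to HIST2H2AB, with 12 copies of 10 names. HIST3H3, HIST3H2A and HIST3H2BB lay at 228612546 to 228646259. HIST2H2BA stood alone at 120906034 to 120914842, and HIST4H4 alone on chromosome 12 at 14923654 to 14924065. Near it lay H2AFJ, an H2A variant outside the list, with its start site 3205 bases from that of HIST4H4 on the opposite strand. Non-histone genes were few within the clusters. The assembly listed 1 in the largest, HFE, the iron-regulation gene of hemochromatosis (26087509 to 26095469), and 1 in the HIST2 cluster, FCGR1A, an immunoglobulin receptor (149754250 to 149764074). None lay in the other 4 clusters. FCGR1A lay within the HIST2 cluster only through the far exon of the 2-exon HIST2H2BF model, which sets the first position of that cluster. The 1-exon HIST2H2BF model lay at 149783434 to 149783928. Between the chromosome 6 clusters lay 5, 15 and 9 other gene names.

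**Figure D3:**
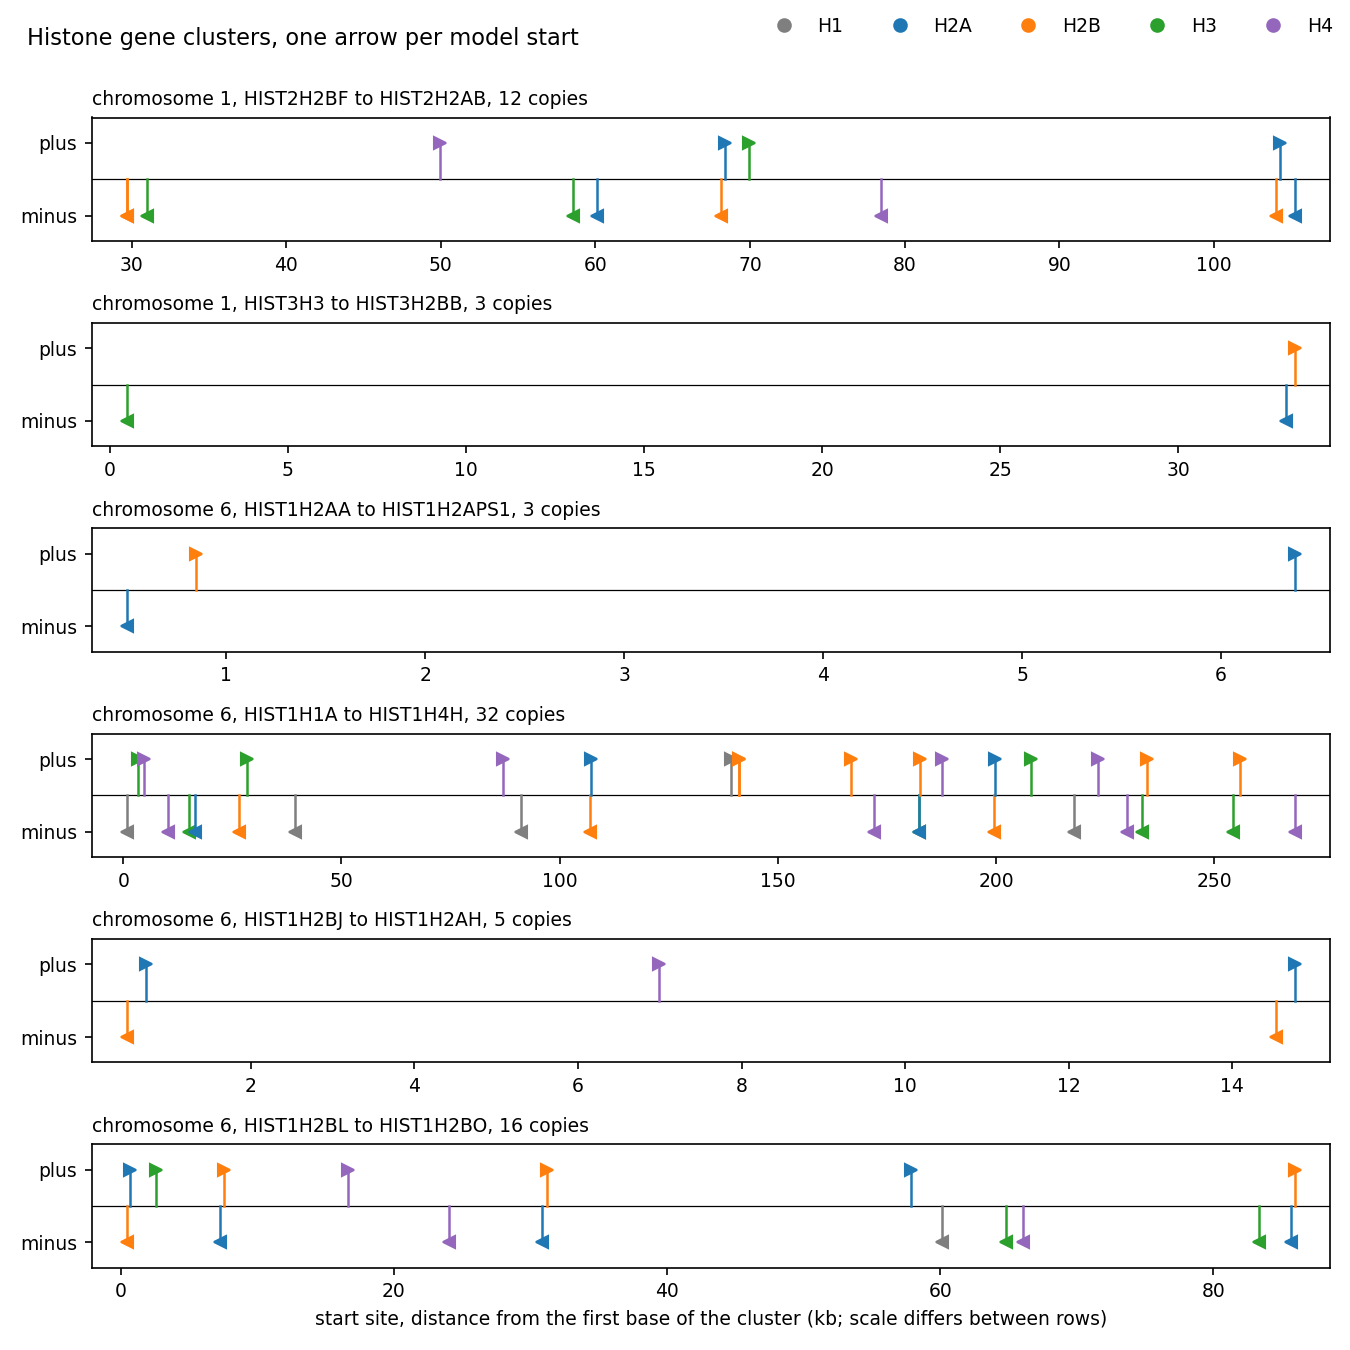
Start sites of the histone models in the 6 clusters, as distance in kb from the first base of each cluster, with the plus strand above and the minus strand below the line; color gives the class, and the scale differs between rows. H2A and H2B arrows that point apart stand almost on top of each other, and H1 appears in the rows of 32 and 16 copies.

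Neighbouring H2A and H2B genes stood head to head. Among neighbouring start sites within clusters, 20 of 64 pairs pointed apart, 16 together and 28 the same way. A head-to-head pair was defined as neighbours that point apart with start sites at most 1000 bases apart, and there were 13. Each of the 13 joined an H2A gene to an H2B gene, at 224 to 347 bases (median 268) between the start sites of the assembly. With GENCODE start sites 10 of the 13 could be placed, at 124 to 248 bases. HIST2H2BC with HIST2H2AA3 was then 124 bases apart, against 288 in the assembly. The GENCODE transcript matched to HIST2H2BC ended 5694 bases further downstream than the model, so its start may not be that of HIST2H2BC. HIST1H2AK with HIST1H2BN was 194 bases apart, against 323, and HIST1H2AA with HIST1H2BA 215, against 347. The 7 other pairs that point apart were 1044 to 47477 bases apart, and none joined H2A to H2B. Of 17 neighbouring H2A and H2B start sites, 13 pointed apart and 4 the same way. In all, 26 of 72 histone start sites (36.1%) were in a head-to-head pair, against 10.3% of 24103 start sites of all genes. By gene name, 13 of 17 H2A and 13 of 20 H2B genes were in one, and 1 of 13 H3, 0 of 15 H4 and 0 of 6 H1 genes.

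**Figure D4:**
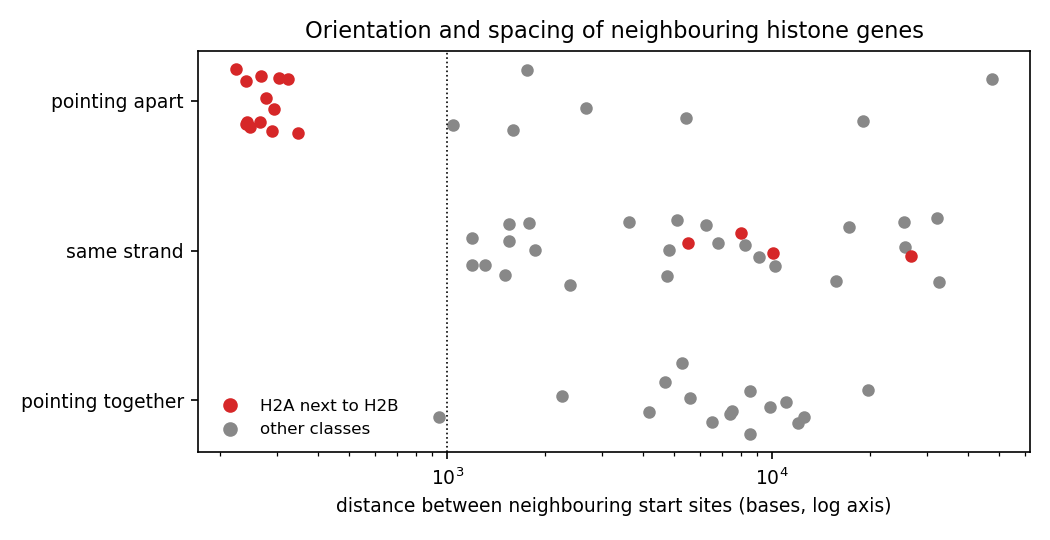
Distance between neighbouring histone start sites, in bases on a log axis, by orientation; red points join an H2A to an H2B gene, and the dotted line marks 1000 bases. The 13 red points among pairs pointing apart lie at 224 to 347 bases, left of every other point.

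By the assembly's start sites, the 5 closest pairs were HIST1H2BK with HIST1H2AH (224 bases), HIST1H2AM with HIST1H2BO (240), HIST1H2BC with HIST1H2AC (241), HIST1H2BJ with HIST1H2AG (242) and HIST3H2A with HIST3H2BB (248). The order depends on the start sites. With those of GENCODE the HIST1H2BK pair could not be placed, and of the others the HIST3H2A pair alone was among the 5 closest. The stretches between the start sites of 3 of them are shown on the plus strand of GRCh37, with CCAAT in capitals, as are TATAAA and the octamer ATTTGCAT, on either strand. CCAAT and TATAAA are common promoter boxes, and the octamer is bound by OCT1, known from H2B promoters.
HIST1H2BK and HIST1H2AH, chr6:27114638-27114860: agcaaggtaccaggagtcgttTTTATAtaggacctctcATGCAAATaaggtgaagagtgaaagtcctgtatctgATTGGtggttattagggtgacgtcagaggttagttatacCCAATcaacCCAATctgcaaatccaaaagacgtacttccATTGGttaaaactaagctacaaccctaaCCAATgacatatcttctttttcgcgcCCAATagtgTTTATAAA
HIST1H2BJ and HIST1H2AG, chr6:27100576-27100816: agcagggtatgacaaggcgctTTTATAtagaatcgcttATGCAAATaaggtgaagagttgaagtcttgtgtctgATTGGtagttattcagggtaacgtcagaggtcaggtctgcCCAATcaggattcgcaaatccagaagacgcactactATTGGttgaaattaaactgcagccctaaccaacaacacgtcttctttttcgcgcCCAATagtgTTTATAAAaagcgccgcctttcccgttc
HIST1H2AM and HIST1H2BO, chr6:27860964-27861202: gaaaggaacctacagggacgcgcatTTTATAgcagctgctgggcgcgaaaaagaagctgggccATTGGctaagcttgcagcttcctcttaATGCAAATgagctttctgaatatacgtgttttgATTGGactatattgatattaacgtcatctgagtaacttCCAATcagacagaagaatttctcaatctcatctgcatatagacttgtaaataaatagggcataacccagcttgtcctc
In the HIST1H2BK pair, 6 CCAAT and 1 octamer were found between the starts, and in the HIST1H2BJ pair 4 and 1. Over the 13 pairs, all 13 stretches held at least 2 CCAAT, 9 held TATAAA and 9 held ATTTGCAT. Their median GC content was 41.4%. The same values for the 1240 head-to-head pairs of all genes are not given here, so these counts have no share of all pairs beside them.

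Promoter letters were counted from 250 bases before to 50 after each start site, on both strands, and matches of different motifs did not overlap in any histone window. The start site shared by HIST1H2AD and HIST1H3D was counted with H3. CCAAT was present at all 6 H1, 17 H2A, 20 H2B and 14 H3 start sites, against 34.5% of 29465 start sites of the assembly. In H4 it was present at 5 of 15 (33.3%), which is near the share of all start sites. TATAAA was present at 14 of 17 H2A, 10 of 14 H3, 12 of 20 H2B, 8 of 15 H4 and 3 of 6 H1 start sites, against 10.9% of all start sites. By gene name, it stood on the gene's own strand in 11 H2A, 9 H3, 9 H2B, 8 H4 and 3 H1 genes. HIST1H2BC, HIST1H2BM, HIST1H2BO, HIST1H2AE and HIST1H2APS1 had it on the opposite strand alone. All of these but HIST1H2APS1 were in a head-to-head pair, so their windows read the stretch of their partner too. TATAAA was counted anywhere in the window. On the gene's own strand it began at -250 from the start in HIST4H4, -224 in HIST1H2BE and -164 in HIST1H2BA. Variants of these letters were not searched, so the counts are not of genes with and without a TATA box.

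The octamer ATTTGCAT was present at 15 of 20 H2B start sites (75%), against 1.61% of all start sites. It was also present at 10 of 17 H2A start sites, of which 7 were in a head-to-head pair with H2B and so read the same stretch. It was present at 1 H3 start site, that of HIST1H2AD and HIST1H3D, and at 0 of 15 H4 and 0 of 6 H1 start sites. On the gene's own strand the octamer stood in 14 H2B genes, a median of 101 bases before the ATG. Of the 15 H2B start sites with it, 6 were in no pair: those of HIST1H2BB, HIST1H2BE, HIST1H2BH, HIST1H2BI, HIST2H2BA and HIST2H2BF.

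**Figure D5:**
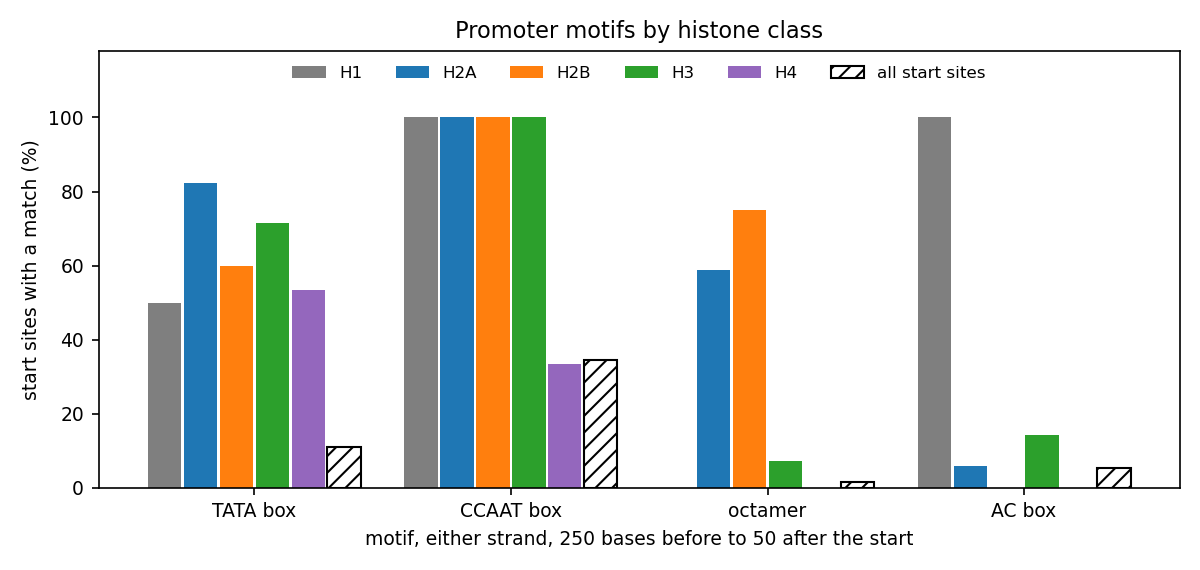
Percentage of start sites with each motif on either strand from 250 bases before to 50 after the start, by histone class, beside all 29465 start sites of the assembly (hatched). The CCAAT box reaches 100% in every class but H4, the octamer is highest in H2B, and the AC box is at 100% in H1.

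AAACACA, the AC box known from H1 promoters, was present at all 6 H1 start sites, against 5.27% of all start sites. It was found at 2 of 14 H3 start sites, those of the 2 identical HIST2H3A copies, past the start on the opposite strand. It was also found at 1 of 17 H2A start sites and at none of H2B or H4. In HIST1H1B, HIST1H1C, HIST1H1D, HIST1H1E and HIST1H1T it stood on the gene's strand 104 to 124 bases before the start, followed by CCAAT 51 to 64 bases further on. HIST1H1B had another copy 233 bases before the start. HIST1H1A carried it on the opposite strand. The stretch from 130 to 11 bases before the start of 4 H1 genes shows this arrangement, on the gene's strand, with AAACACA in capitals, as are CCAAT boxes and any TATAAA.
HIST1H1C, chr6:26056710-26056829: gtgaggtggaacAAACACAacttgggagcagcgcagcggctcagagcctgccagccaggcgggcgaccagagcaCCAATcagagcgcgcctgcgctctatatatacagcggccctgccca
HIST1H1D, chr6:26235227-26235346: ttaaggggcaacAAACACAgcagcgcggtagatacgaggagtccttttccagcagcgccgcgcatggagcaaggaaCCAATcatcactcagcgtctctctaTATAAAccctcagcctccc
HIST1H1E, chr6:26156429-26156548: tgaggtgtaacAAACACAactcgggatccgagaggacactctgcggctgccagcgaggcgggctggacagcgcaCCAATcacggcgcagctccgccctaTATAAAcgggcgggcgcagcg
HIST1H1T, chr6:26108375-26108494: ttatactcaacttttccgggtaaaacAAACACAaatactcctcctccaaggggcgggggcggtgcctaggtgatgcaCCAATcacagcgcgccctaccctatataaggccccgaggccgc
HIST1H1E is on the plus strand and the 3 others are on the minus strand. A motif match is a description of letters. It shows no binding.

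The 2-exon models other than that of HIST1H3D, and the 1 long single-exon model, depart from the usual end. HIST1H2BD had both kinds of end. Its 1-exon model of 487 bases stopped 5 bases past the stem-loop. Its 2-exon model of 813 bases was cut at base 439, before the stem-loop, removed 12415 bases as an intron with the stem-loop inside, and ended 18 bases past AATAAA. Both contained the same frame of 126 codons. HIST1H2BK was listed as 1 model of 839 bases with an intron of 7727 bases, which also removed a stem-loop. HIST1H4I, on the opposite strand at 27107088 to 27107457, lies within that intron.

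HIST2H2BF had a 1-exon model of 495 bases with the stem-loop and a 2-exon model of 999 bases without it. The 28685-base intron of the longer one joins an exon at 149783502 to 149783928 to one at 149754245 to 149754816. Its longest frame was 134 codons, against 126 in the shorter model. In HIST2H2BA, which has a non-coding accession, an intron of 8294 bases removed the stem-loop as well, and the longest frame was 69 codons. HIST2H2BE kept 1 exon and ran on for 2223 bases, with the stem-loop at base 480 inside the message and AATAAA 17 bases before the end. Its frame of 126 codons was followed by 1800 bases after the stop.

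HIST1H3D ran through the gene next to it. Its single model of 921 bases began at the start site of HIST1H2AD, kept the first 435 bases of that gene, and joined them to an exon at 26197012 to 26197497 that holds the H3 frame. The intron of 1589 bases removed the end of the H2A frame with the HIST1H2AD stem-loop. The other stem-loop, at base 901 of the model, lay 5 bases before its end. The model held 2 long frames. The first had 170 codons and shared its first 128 residues with the 130 of HIST1H2AD. The second had 136 codons, began at base 455, after the junction, and gave the same translation as 9 other HIST1 H3 genes. In the assembly HIST1H2AD and HIST1H3D share 1 locus and 1 start site group, so a value summed at either level would add an H2A and an H3 gene together.

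Splice site letters were GT-AG for the introns of HIST2H2BA, HIST2H2BF, HIST1H2BD and HIST1H2BK, and GC-AG for that of HIST1H3D. The intron chains of HIST2H2BF and HIST1H2BD were present in GENCODE, and those of HIST2H2BA, HIST1H3D and HIST1H2BK were not found there. No histone gene had a joined model, that is, one sharing junctions with a RefSeq transcript but not its whole chain. This was 0 of 71 gene names (upper 95% limit 5.06%), against 10.6% of all gene names. The 66 names with single-exon models alone have no junction to share, so they could not have such a model. The count therefore says little about splicing at these genes.

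Near-identical copies limit what reads could tell apart. In the HIST2 cluster, HIST2H4B and HIST2H4A, the 2 HIST2H3A copies and the 2 HIST2H2AA3 copies lie on opposite strands at equal distances from 1 centre, with identical spliced sequences of 396, 507 and 534 bases. Compared base by base in mirror image, all 15 bins of 1 kb from 4 to 19 kb from that centre were identical, against at most 73.7% in any other bin up to 40 kb. By their RefSeq accessions, the 2 copies listed as HIST2H3A carry the current symbols H3C15 and H3C14. By position, the overlapping GENCODE transcripts gave the same 2 symbols the other way round. Reads from these pairs cannot be assigned to 1 copy, and any count for them would be uncertain.

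Outside that repeat, sharing was partial. In 35 of 75 models no window of 50 bases occurred in another histone gene of the list, and in the 6 models of the repeat all did. HIST1H4K shared 91.8% of its windows and HIST1H4J 91.2%. HIST1H2AD shared 83.7%, and HIST1H3D, which begins with the same 435 bases, 44.3%. HIST1H2AJ shared 72.6% and HIST1H2AI 67.4%. The median was 9.03% in H2B, 3.17% in H2A and 0% in H1, H3 and H4. At 100 bases, 55 of the 75 models shared none. The read length of the libraries is not given in the sources used here, and windows were compared only among the histone members.

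The related list of histone genes outside the clusters holds 21 names of replication-independent variants and linker histones, of which 18 were found on chromosomes 1 to 22, X and Y. None of the 18 had a fully paired stem-loop within 100 bases of a model's end, against 1.91% of all gene names on chromosomes 1 to 22. AATAAA or ATTAAA stood in the last 50 bases in 14 of the 18, against 68.8% of all gene names. Every model had 1 exon in 6 of the 18, against 14.5% of all gene names, and 12 had a model with more. The first 2 counts are near the shares of all genes. H3F3A and H3F3B, which encode the replacement histone H3.3, had 4 exons, with 1042 to 1062 and 2705 spliced bases. H2AFZ, encoding H2A.Z, had 5 exons and 947 bases, and CENPA, the centromere H3, 4 or 5 exons. Among the 1-exon genes, H1F0 measured 2330 bases, H1FX 1507 and H3F3C 1057.

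H2AFX, encoding H2A.X, the variant phosphorylated at DNA breaks, had both a stem-loop and a poly(A) signal. Its single exon of 1593 bases on chromosome 11 held this stem-loop starting at base 555, and a poly(A) hexamer in the last 50 bases.
H2AFX: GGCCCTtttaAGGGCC
The stem is that of H4 genes with the TTTA loop, a combination found in none of the 68 clustered models. Both stems, GGCTCT with AGAGCC and GGCCCT with AGGGCC, were searched with any 4-letter loop in the spliced models of both related lists, on the gene's strand. H2AFX was the one gene with a match.

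The genes that process and control histone messages were ordinary multi-exon genes in the assembly. Of 23 listed names 21 were found, all with more than 1 exon, and the highest exon number per gene had a median of 8. Of all gene names on chromosomes 1 to 22, 14.5% had single-exon models alone. None of the 21 ended in a fully paired stem-loop, against 1.91% of all gene names. AATAAA or ATTAAA stood in the last 50 bases in 19, against 68.8% of all gene names. SLBP had 1 model of 8 exons and 1725 bases. LSM10 and LSM11, subunits of the U7 particle, had 1 model each, of 2 and 4 exons. NPAT, the coactivator of histone transcription, had 18 exons, and CASP8AP2, which encodes the processing factor FLASH, 10. CPSF3, the nuclease that cuts the message, had 18. Joined models were present at 1 gene of each related list, against 10.6% of all gene names. They were 2 of 6 models at H2AFY, encoding macroH2A, and 2 of 5 at ZCCHC6, which adds uridines to histone messages. More than 1 model was also listed for H2AFB2 (7), H2AFV (5), H2AFJ, H3F3A, HILS1 and CENPA (2 each), and for SRRT (4), CASP8AP2 and SNRPD3 (3 each), and ZNF473, SNRPB and NCBP2 (2 each). The 7 H2AFB2 models, each of 1 exon and 517 to 594 bases, were spread over 154113244 to 154689669 on chromosome X. They are thus not isoforms from 1 place. The names H2AFB1, H2AFB3, H2BFS, RNU7-1 and ARS2 were not matched to a model. This does not show that the genes are missing, since a gene can be listed under another name.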

How the data were processed

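The file is 1 merged assembly for the 6 libraries, with Cufflinks in its source column. The submitters' processing notes name TopHat2, Cufflinks and the build hg19 but no version, and the settings of the authors' run are not stated in the labels. What was deposited per exon is a first and a last position and text tags, with no abundance. Depth is therefore unknown, and the planned expression fit was not made.

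Models were rebuilt in Python 3.11.15 with pysam 0.24.0, scipy 1.17.1, numpy 2.4.6 and matplotlib 3.10.9. Sequence was read from GRCh37, the build named in the notes. A stem-loop was a run of 16 letters, GG at its start and CC at its end, with at least 5 of 6 stem pairs (Watson-Crick or G-U) and a 4-letter loop. The frame and stem-loop searches were checked on simulated sequences. Head-to-head neighbours were taken over distinct start sites. Named genes were those with more than 1 exon or model, a shared locus, no stem-loop, a place outside clusters or at their ends, the closest pairs, identical sequences, and the shortest and longest of each class, with exceptions to the usual stem-loop position, the stem-loop genes outside the list, and the related genes given with values beyond the rule chosen after their values were seen. The members and lists were chosen with earlier results of these data known. No test was made, since the file has no replicates.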

Additional observations from a re-analysis of the deposited data

How the results depend on the processing

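No paired analysis was possible because the assembly carries no value per library; the expression fits, their replicate block, pseudocount, filter and fits without single replicates were not run. Under the 17 alternatives run, each share stayed within the 95% interval of the reported one. The stem-loop share, 94.4%, became 93.0% with all 6 pairs and 91.5% both with a 50-base window and when every model had to have one. The single-exon share, 93.0%, became 95.8% when 1 single-exon model sufficed and 93.3% over models. The 6 clusters became 5 with a gap of 500 kb. The 13 head-to-head pairs stayed 13 at 500 bases, became 16 at 2000, and were 11 with GENCODE start sites, an alternative chosen after seeing the data that left out the 5 models without a GENCODE match. That lost the pairs of HIST1H2BF, HIST1H2BG and HIST1H2BK and added HIST1H3F with HIST1H2BH, 979 bases apart. The 11 pairs were 124 to 979 bases apart (median 240), against 224 to 347 (median 268) for the 13. The value of 124 rests on the long transcript matched to HIST2H2BC. Motif windows depend on start sites, which are start codons in 34 of 75 models.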
